A study of Mus musculus with 22 samples.

Results

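The 8 genes described here encode the enzymes that write, copy and oxidise DNA methylation in mouse cells, together with the cofactors Dnmt3l and Uhrf1. They are Dnmt1, Uhrf1, Dnmt3a, Dnmt3b, Dnmt3l, Tet1, Tet2 and Tet3, a list of names out of 55055 genes listed in all the tables. The list was set by what the genes do, with earlier results of these data known. Each was read in all 22 RNA-seq libraries of a study of mouse embryonic stem (mES) cells and embryo models that lack Hox function.

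DNA methylation is a methyl group on cytosine, mostly where a C is followed by a G (CpG). Dnmt1 copies it onto the new strand at replication, guided there by Uhrf1, which binds CpG methylated on the old strand alone. Dnmt3a and Dnmt3b place it on unmethylated DNA, and Dnmt3l, which has no activity of its own, stimulates both. Tet1, Tet2 and Tet3 oxidise methylcytosine, after which it is diluted by replication or cut out by repair. Naive stem cells are known for low methylation and high Tet1 and Tet2, and the leaving of pluripotency for new methylation by Dnmt3a and Dnmt3b.

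The libraries fall into 10 groups. The mES cells, wild-type or Hox-/-, were kept in LIF, 3 µM CHIR99021 (an inhibitor of GSK-3, which switches on Wnt signalling) and 1 µM of the MEK inhibitor PD0325901, with 2 libraries per genotype. Both genotypes were also taken to endoderm in adherent culture with 100 ng/ml activin A and 3 µM CHIR99021 and collected at 120 h, with 3 libraries per genotype. Gastruloids, clumps of stem cells grown in suspension, mimic some steps of early embryo patterning. Wild-type and Hox-/- gastruloids treated with activin A, and wild-type gastruloids labelled Chiron, were collected at 2 times, 96 h and 120 h (2 libraries at each), and no doses are given for them. The labels give the endoderm cultures and all gastruloids as mixed cells. The number of clones per genotype is not stated, nor whether libraries came from separate cultures, so p-values measure only the spread between these libraries, and genotype and cell line cannot be told apart.

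Total counts ran from 9.11 to 28.8 M per library, and in the gastruloids depth goes with time, at 15 to 28.8 M at 96 h and 9.11 to 11.9 M at 120 h. The 39 Hox genes summed to 30.4 to 35.7 CPM (counts divided by the library's total in M) in wild-type mES cells and 0.448 to 1.34 in Hox-/- mES cells. In endoderm cultures they summed to 828 to 877 CPM against 22.5 to 28.6, and at 120 h in activin A gastruloids to 1167 to 1190 against 63.8 to 69.5. At 96 h in activin A gastruloids the sums were 624.8 to 660.5 CPM against 102.3 to 103.8. All 4 Y-linked markers read were at or under 3 counts in every Hox-/- library, while their sum was 98.8 to 185 CPM in wild type, so the genotype and the Y chromosome cannot be told apart. Of the defining markers, 10 naive pluripotency genes summed to 5288 to 5302 CPM in wild-type mES cells, and 9 endoderm genes to 325 to 332 CPM in wild-type endoderm cultures and to 151 to 156 in Hox-/- ones. The 2 Chiron libraries of 96 h differed most from each other.

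The start regions of the genes differ in how many CpG sites they hold. To show this for the de novo and the Tet genes, the 250 bases before the first listed start of each are printed, from RefSeq on GRCm38.p6, 5′ to 3′ on the gene's strand, with every CpG in capitals. The windows are chr12:3806730-3806979 (plus strand) for Dnmt3a, chr2:153649199-153649448 (plus) for Dnmt3b, chr10:78042037-78042286 (plus) for Dnmt3l, chr10:62887325-62887574 (minus) for Tet1, chr3:133544391-133544640 (minus) for Tet2 and chr6:83441679-83441928 (minus) for Tet3.
Dnmt3a: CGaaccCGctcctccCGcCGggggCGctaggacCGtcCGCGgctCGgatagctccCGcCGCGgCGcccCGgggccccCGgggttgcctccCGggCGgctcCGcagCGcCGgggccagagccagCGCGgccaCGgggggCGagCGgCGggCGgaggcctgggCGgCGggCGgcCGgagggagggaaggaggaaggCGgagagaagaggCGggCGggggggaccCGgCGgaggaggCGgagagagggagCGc
Dnmt3b: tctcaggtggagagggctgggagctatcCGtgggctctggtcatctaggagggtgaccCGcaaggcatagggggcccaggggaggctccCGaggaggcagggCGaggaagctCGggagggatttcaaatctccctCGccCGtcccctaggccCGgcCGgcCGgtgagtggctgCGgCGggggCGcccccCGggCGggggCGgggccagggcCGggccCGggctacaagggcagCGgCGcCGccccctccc
Dnmt3l: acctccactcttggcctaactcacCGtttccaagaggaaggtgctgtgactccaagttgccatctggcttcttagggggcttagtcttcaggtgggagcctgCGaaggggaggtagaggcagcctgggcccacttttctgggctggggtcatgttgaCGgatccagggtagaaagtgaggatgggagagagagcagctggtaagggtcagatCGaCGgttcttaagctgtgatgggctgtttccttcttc
Tet1: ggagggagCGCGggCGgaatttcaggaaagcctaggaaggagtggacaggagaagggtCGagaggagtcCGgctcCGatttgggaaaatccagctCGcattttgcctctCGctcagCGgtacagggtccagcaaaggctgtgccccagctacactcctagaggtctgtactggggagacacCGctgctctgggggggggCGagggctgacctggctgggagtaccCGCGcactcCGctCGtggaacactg
Tet2: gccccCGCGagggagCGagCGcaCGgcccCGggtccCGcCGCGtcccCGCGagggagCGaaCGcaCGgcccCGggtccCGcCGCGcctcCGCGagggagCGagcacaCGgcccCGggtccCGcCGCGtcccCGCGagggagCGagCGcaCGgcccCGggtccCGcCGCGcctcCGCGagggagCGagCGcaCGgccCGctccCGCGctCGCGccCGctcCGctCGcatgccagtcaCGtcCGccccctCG
Tet3: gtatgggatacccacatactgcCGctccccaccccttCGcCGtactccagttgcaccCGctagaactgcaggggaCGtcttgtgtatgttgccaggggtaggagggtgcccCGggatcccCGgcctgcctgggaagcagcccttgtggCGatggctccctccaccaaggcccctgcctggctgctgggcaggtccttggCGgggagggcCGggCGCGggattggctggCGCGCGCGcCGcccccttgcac
The Dnmt3l window holds 5 CpG, and the windows at the other 2 Dnmt3l starts hold 4 and 3. That is below the median of 6 over 32851 such windows (quartiles 2 and 16). Fewer CpG than in the Dnmt3l window shown are held by 44.4% of all windows. The Tet2 window holds 51, and 99.9% of all windows hold fewer. Dnmt3a has 38, Dnmt3b 21, Tet3 17 and Tet1 15. Only 1 start is listed for Tet1, for Tet2 and for Tet3. Their windows lie inside the genes' loci, and so does the Dnmt3a window shown. These loci begin upstream, at chr10:62908996 for Tet1, chr3:133545139 for Tet2, chr6:83459084 for Tet3 and chr12:3806527 for Dnmt3a. The sequence before those ends was not read. The internal Dnmt3a start, known as that of the shorter isoform found in stem cells, has 15, and the counts, which are per gene, do not tell the starts apart. Neither E2F motif searched on both strands, TTTCCCGC (in 0.895% of all windows) and TTTGGCGC (in 0.417%), lies in any of the 15 windows of the 8 genes. The GC box GGGCGG, in 32.7% of all windows, is in the windows of Dnmt3a, Dnmt3b, Tet1, Tet2 and Tet3 shown and not in the one of Dnmt3l shown.

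On mm10 the genes lie on 7 chromosomes: Dnmt1 at chr9:20907209-20959888, Uhrf1 at chr17:56303321-56323486, Dnmt3a at chr12:3806527-3914443, Dnmt3b at chr2:153649450-153687730, Dnmt3l at chr10:78042287-78063622, Tet1 at chr10:62804570-62908996, Tet2 at chr3:133463679-133545139 and Tet3 at chr6:83362373-83459084. Dnmt3l shares 67 exonic bases with Aire on the other strand, which stayed at or under 4.33 CPM. Whether counting used strand is not given in the sources used here, so reads in that overlap cannot be assigned. Dnmt3c, a relative of Dnmt3b, stayed at or under 0.487 CPM in every library.

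Across the 10 groups the levels of Dnmt1 spanned 1.97-fold between the highest and the lowest group mean in CPM. For Uhrf1 the span was 4.35-fold, for Dnmt3b 4.92-fold and for Dnmt3a 5.02-fold. The Tet genes spanned more, at 11.2-fold for Tet1, 19.5-fold for Tet2 and 23.6-fold for Tet3. These spans depend on the scaling. With TMM scaling (edgeR over all 22 libraries) the log2 difference for Dnmt1 was 1.32, wild-type mES cells minus wild-type activin A gastruloids at 120 h. For Tet2 it was 4.55, wild-type mES cells minus wild-type activin A gastruloids at 96 h. For Tet3 it was -4.26, Hox-/- mES cells minus Chiron gastruloids at 120 h. Tet2 then spanned more than Tet3. Tet1, Tet2, Uhrf1 and Dnmt1 had their highest means in mES cells, and Dnmt3a and Tet3 their lowest. Dnmt3l was highest in wild-type mES cells (33.2 CPM), not separated from wild-type endoderm (32.2 CPM, edgeR adjusted p = 0.124). Hox-/- mES cells held less Dnmt3l (20.8 CPM). Dnmt3b was highest in wild-type activin A gastruloids at 96 h. In the order of group means many neighbours did not differ by edgeR over all 22 libraries: of 9 neighbouring pairs, 7 missed the threshold for Tet1, 6 for Tet3, 5 for Tet2, 4 for Uhrf1 and Dnmt3l, 3 for Dnmt1 and Dnmt3a, and 2 for Dnmt3b. Across cultures, culture, table and depth go together and cannot be told apart.

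**Figure D1:**
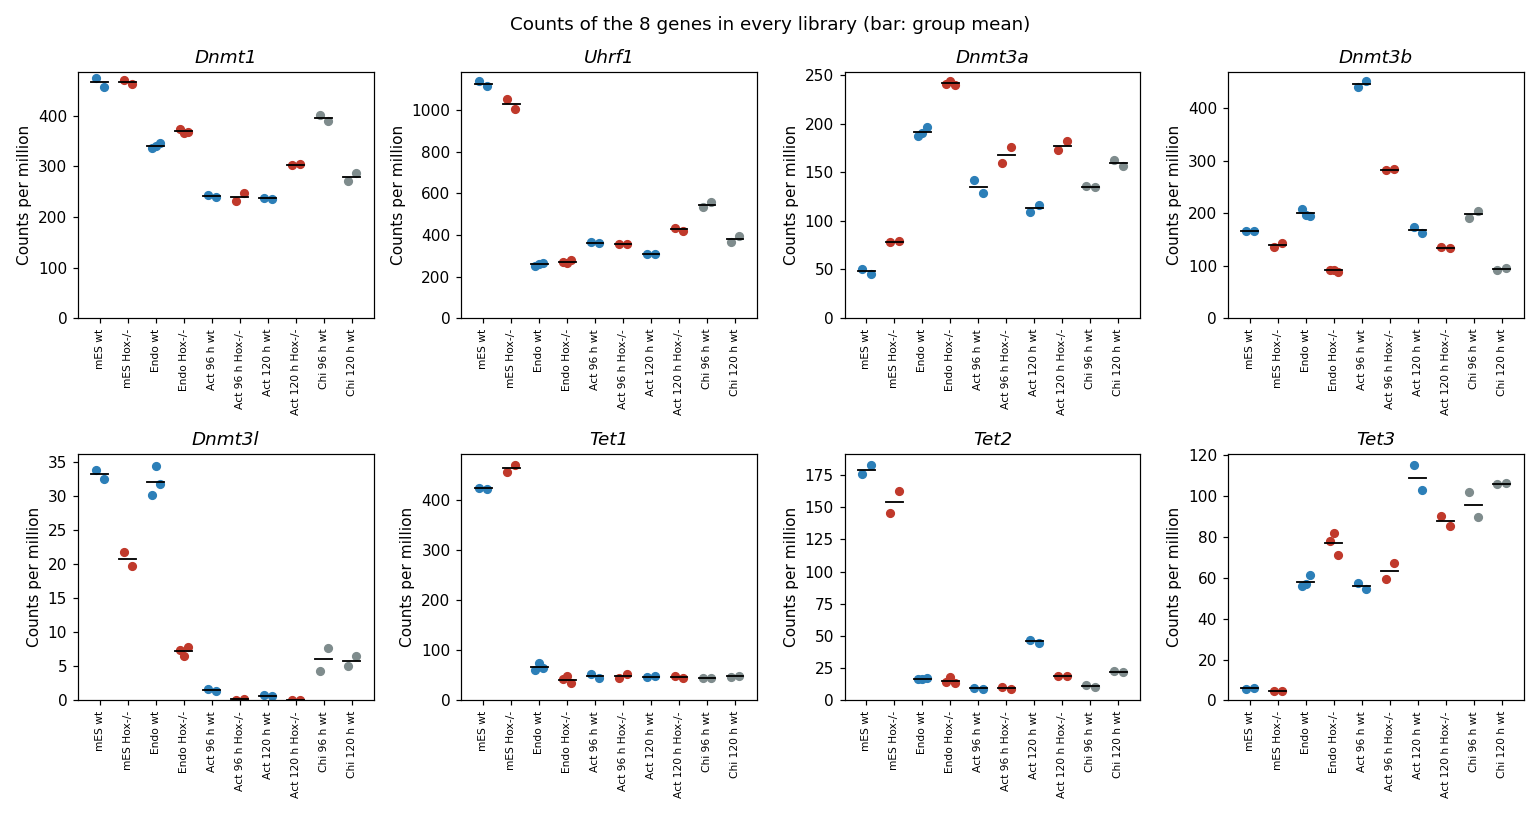
Level in CPM (linear axes from 0, a separate scale per gene) of the 8 genes in each of the 22 libraries, by group: wild type in blue, Hox-/- in red, Chiron (wild type) in grey, with a bar at the group mean. Tet1 stands at 422 to 470 in mES cells and at or under 75.2 in all other libraries, and Tet3 shows the opposite order.

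Per unit of transcript length, in the deposited FPKM (read fragments scaled by transcript length and library size), Uhrf1 was the most abundant of the 8 in mES cells, at 308 ± 3.34 (SD, n = 2) in wild type. Dnmt1 followed at 78.7 ± 2.64, then Dnmt3b at 40.3 ± 0.299 and Tet1 at 27.7 ± 0.0612. Tet3 was lowest there at 0.542 ± 0.0145 FPKM. At 96 h in wild-type activin A gastruloids the order at the top was different, with Dnmt3b at 96.4 ± 1.35 and Uhrf1 at 92.5 ± 1.53 FPKM. FPKM tables were normalized separately, which bears on any level set across cultures.

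The first question was what the Hox deletion goes with. In mES cells 6 of the 8 genes differed between genotypes (edgeR, adjusted p under 0.05), against 23.2% of all genes tested. Of these 2 were higher and 4 lower in Hox-/-, where 12.4% and 10.8% of all genes were. In endoderm cultures 6 differed (46.2% of all genes), 3 higher and 3 lower (23.1% of all genes in each direction). At 96 h in activin A gastruloids 4 differed (38.9% of all genes), 2 higher (22.2%) and 2 lower (16.7%). At 120 h 7 differed (50.4%), 3 higher (24.9%) and 4 lower (25.5%). Dnmt3a was higher, and Dnmt3b and Dnmt3l lower, in all 4 comparisons, as were 2.75% of the 12519 genes tested in all 4 in one direction or the other (1.58% higher and 1.17% lower).

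**Figure D2:**
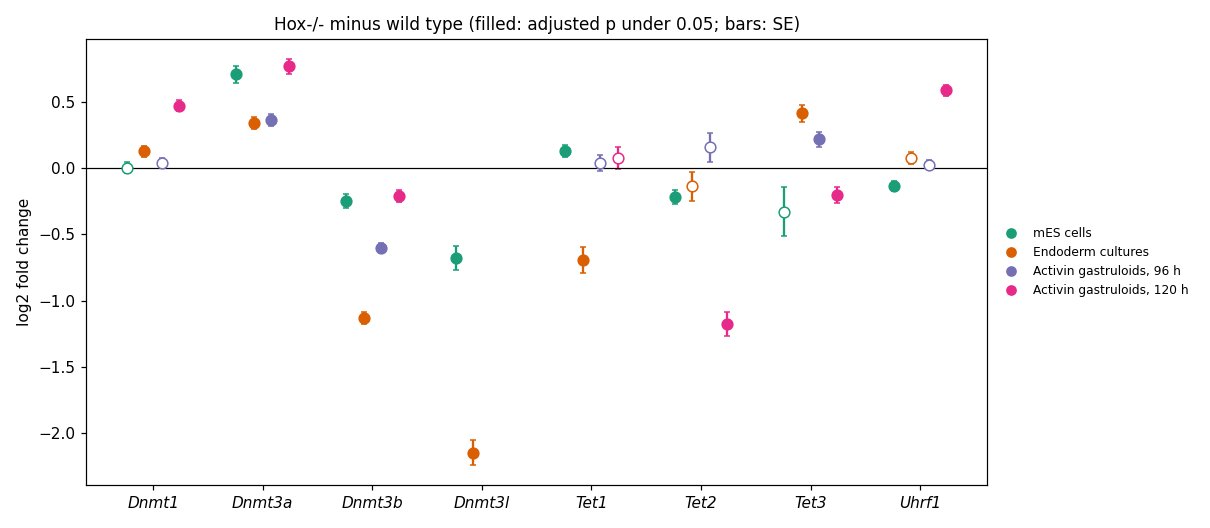
Log2 fold change of Hox-/- over wild type with its SE for each gene in mES cells, endoderm cultures and activin A gastruloids at 96 h and 120 h, filled where the adjusted p is under 0.05. Dnmt3a lies above 0 and Dnmt3b below 0 in all 4 cultures; Dnmt3l in gastruloids is left out because its Hox-/- libraries hold at most 3 counts.

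Of the maintenance pair, Dnmt1 read 475 and 457 CPM in wild-type mES cells and 471 and 463 in Hox-/- ones. The genotypes overlapped, and the log2 fold change was 0.00079 (SE 0.042, adjusted p = 0.993). In endoderm cultures Dnmt1 read 336, 341 and 346 CPM in wild type and 373, 367 and 368 in Hox-/-. These did not overlap, but the difference was small, 0.12 on the log2 scale (SE 0.044, adjusted p = 0.0323), and it missed the threshold without either of wild-type replicates 1 and 2 or Hox-/- replicates 1 and 3 (adjusted p 0.0752 to 0.112).

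At 120 h in activin A gastruloids the maintenance pair rose together in Hox-/-. Dnmt1 read 238 and 236 CPM in wild type and 302 and 305 in Hox-/-, a log2 fold change of 0.47 (SE 0.043, adjusted p = 2.11e-13). Uhrf1 read 307 and 309 CPM against 435 and 421, a log2 fold change of 0.59 (SE 0.04, adjusted p = 1.25e-17). Neither pair of groups overlapped. At 96 h neither gene passed, with Dnmt1 at 244 and 239 CPM against 231 and 248 and Uhrf1 at 365 and 360.1 against 357 and 354. The change with time was tested itself: the genotype difference was larger at 120 h than at 96 h by 0.43 for Dnmt1 (SE 0.058, adjusted p = 2.51e-08) and by 0.56 for Uhrf1 (SE 0.055, adjusted p = 4.73e-12).

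Uhrf1 in mES cells read 1140.3 and 1116 CPM in wild type and 1053 and 1004 in Hox-/-, a log2 fold change of -0.14 (SE 0.038, adjusted p = 0.00783). The libraries did not overlap, but the call was lost without either wild-type library (adjusted p 0.225 without replicate 1 and 0.0716 without replicate 2). In endoderm cultures Uhrf1 read 252, 261 and 266 CPM against 272, 265 and 279, and missed the threshold (log2 fold change 0.08, adjusted p = 0.207).

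Beside this pair, the summed level of 20 replication genes at 120 h was 3175 to 3197 CPM in wild-type and 3691 to 3692 in Hox-/- activin A gastruloids, and 14 of 20 rose and 2 fell (median log2 fold change 0.30, against -0.02 over all genes). Pola1, a subunit of DNA polymerase alpha, rose by 0.71 and Mcm6, a subunit of the replicative helicase, by 0.54, while Gins2 fell by 0.37 and Gins1 fell by 0.18. At 96 h 10 of 20 rose and none fell (median 0.10, against 0.03 over all genes), and Uhrf1 and Dnmt1 missed the threshold. In endoderm cultures 5 rose and 6 fell (median 0.02). Of 12 mitosis genes, 8 rose at 120 h and none fell (median 0.24). The part of the share of dividing cells in the Uhrf1 and Dnmt1 values was not tested.

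**Figure D3:**
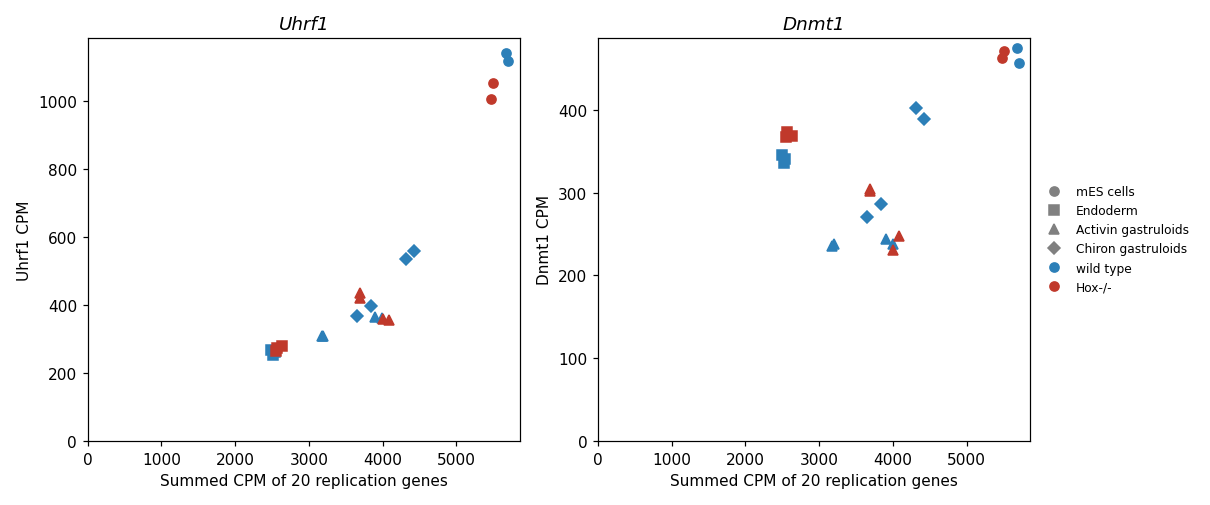
CPM of Uhrf1 and of Dnmt1 (vertical axes) against the summed CPM of 20 replication genes (horizontal axes), one point per library, with shape for the culture and colour for the genotype. Uhrf1 is highest where the sum is highest, in mES cells (1004 to 1140.3 beside sums of 5475 to 5705). Endoderm cultures hold more Dnmt1 (336 to 373) than activin A gastruloids (231 to 305) at lower sums.

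Among the de novo enzymes, Dnmt3a read 50.6 and 45.5 CPM in wild-type mES cells and 78.3 and 79.2 in Hox-/- ones. The groups lay well apart, and the log2 fold change was 0.71 (SE 0.066, adjusted p = 2.12e-10). In endoderm cultures it read 188, 190.5 and 197 CPM in wild type against 240.4, 243 and 240.0 in Hox-/- (log2 fold change 0.34, SE 0.045, adjusted p = 3e-05). The values at 96 h in activin A gastruloids were 142 and 128 CPM against 159 and 176 (0.36, SE 0.046, adjusted p = 5.87e-09). At 120 h they were 109 and 117 CPM against 172 and 182 (0.77, SE 0.055, adjusted p = 8.25e-17). No Hox-/- library overlapped the wild type of its culture. The difference was larger at 120 h than at 96 h by 0.40 (SE 0.072, adjusted p = 1.04e-05; 0.073 with limma on FPKM), and smaller in endoderm than in mES cells by 0.34 (log2 difference -0.34, SE 0.08, adjusted p = 0.00369; 0.0537 without wild-type mES replicate 2).

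Dnmt3b went the other way. In mES cells it read 166 and 165 CPM in wild type and 136 and 143 in Hox-/- (log2 fold change -0.25, SE 0.051, adjusted p = 0.000362). That call was lost with limma on FPKM (adjusted p 0.0724). In endoderm cultures the fall was the deepest of the 4, from 208, 197 and 194 CPM to 91.4, 92.1 and 88.7, which is -1.13 on the log2 scale (SE 0.048, adjusted p = 2.56e-10) or 2.19-fold. At 96 h in activin A gastruloids it fell from 441 and 451 CPM to 282 and 283 (-0.61, SE 0.037, adjusted p = 3.92e-19). At 120 h, 174 and 162 CPM stood against 135 and 133 (-0.21, SE 0.048, adjusted p = 0.000224). The groups did not overlap in any culture. The difference between endoderm and mES cells in this effect was -0.86 (SE 0.071, adjusted p = 3.38e-08), and that between 120 h and 96 h was 0.39 (SE 0.061, adjusted p = 6.24e-07).

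Dnmt3l, the cofactor, fell further. Wild-type mES cells read 33.9 and 32.6 CPM and Hox-/- ones 21.8 and 19.7 (log2 fold change -0.68, SE 0.09, adjusted p = 3.82e-07). In endoderm cultures 30.2, 34.5 and 31.8 CPM fell to 7.33, 6.58 and 7.81 (-2.14, SE 0.095, adjusted p = 3.95e-10), or 4.42-fold. The effect in endoderm differed from that in mES cells by -1.44 (SE 0.14, adjusted p = 2.21e-07). Activin A gastruloids held little Dnmt3l. At 96 h the wild-type libraries had 37 and 36 counts and the Hox-/- libraries 2 and 3, a ratio of 11 after scaling by depth (95% counting interval 4.5 to 34.8; edgeR adjusted p = 2.9e-07). At 120 h the wild type had 7 and 6 counts and both Hox-/- libraries 0, so wild type was at least 2.63-fold higher, computed at 3 counts per library (edgeR adjusted p = 0.000267). Intervals and floors cover counting error only.

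Most markers of pluripotency and endoderm were also called lower in Hox-/- outside mES cells. Of 10 naive pluripotency genes, 10 fell in endoderm cultures, 9 fell at 96 h, and 7 fell and 1 rose at 120 h. Of 4 general ones, 4 fell in endoderm cultures, 2 fell and 1 rose at 96 h, and 4 fell at 120 h. Of 9 endoderm genes, 9, 8 and 7 fell and none rose. In endoderm cultures the 10 naive pluripotency genes, all above 3 counts in at least 1 library, summed to 486 to 541 CPM in wild type and 163 to 167 in Hox-/-, and the 4 general ones to 388 to 445 and 151 to 168. The sum of 5 fibroblast genes was 359 to 373 CPM in Hox-/- against 127 to 193, which is mostly Col1a1 (345 against 138 CPM). Of the 4 tested, Col1a1 rose and Thy1 fell. At 96 h in activin A gastruloids the general pluripotency sum was 1453 to 1463 CPM against 1052 to 1064, and the endoderm sum 537 to 599 against 151 to 154. By 120 h the naive sum was 38.3 to 42.7 CPM against 20 to 20.5, with Zfp42 and Nr0b1 at or under 3 counts in Hox-/-, and the endoderm sum 496 to 509 against 172 to 179. Their part in the lower Dnmt3b and Dnmt3l was not tested, and in such bulk samples fewer cells of a type and less RNA per cell cannot be told apart. In mES cells, where Dnmt3b and Dnmt3l were also lower, the naive sum was 5288 to 5302 CPM in wild type and 4849 to 4884 in Hox-/-, and 5 of 10 naive genes fell and none rose.

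The ratio of Dnmt3b to Dnmt3a, in FPKM within each library, condenses these opposite changes. It was 3.47 ± 0.214 (SD, n = 2) in wild-type and 1.89 ± 0.0339 in Hox-/- mES cells, and 1.26 ± 0.113 (n = 3) against 0.46 ± 0.0156 in endoderm cultures. In activin A gastruloids it was 3.82 ± 0.334 against 1.80 ± 0.113 at 96 h and 1.47 ± 0.19 against 0.675 ± 0.0692 at 120 h. Hox-/- thus held 36.6% to 54.4% of the wild-type ratio. The groups did not overlap in any culture, and each exact permutation test gave the smallest p its design allows (0.333 for 2 against 2 libraries and 0.1 for 3 against 3), which cannot pass 0.05. These are 4 of 24 such tests of ratios and shares.

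**Figure D4:**
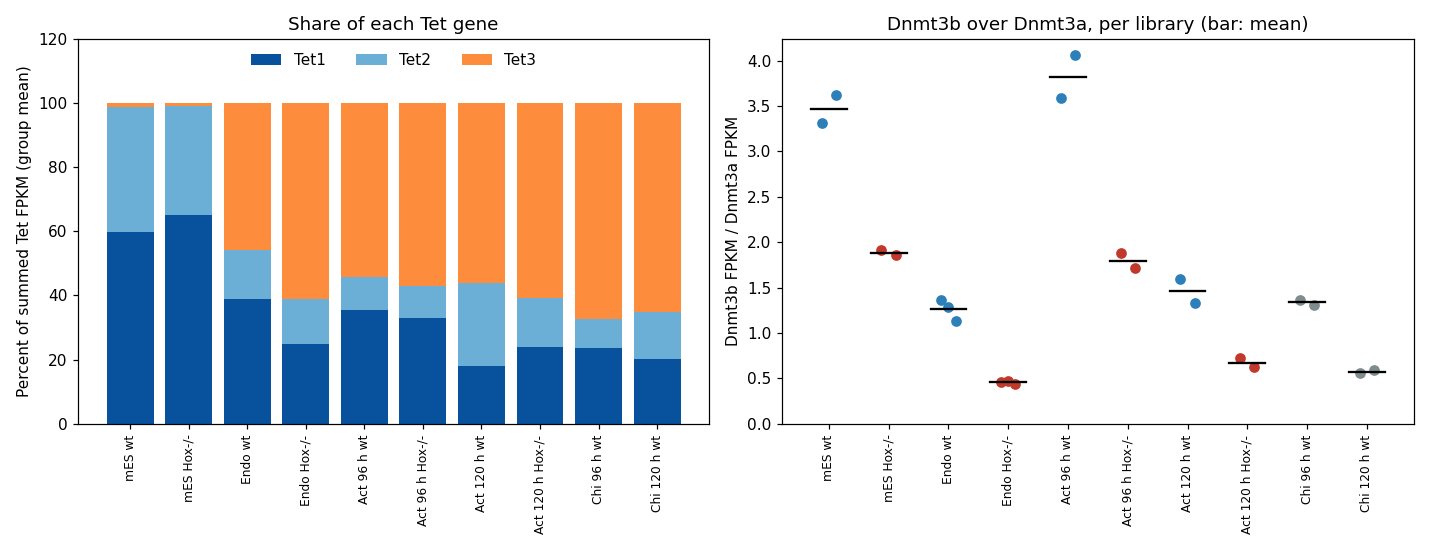
Left, the mean share of each Tet gene in the summed FPKM of the 3 Tet genes, in percent, by group; right, Dnmt3b FPKM over Dnmt3a FPKM in each library with a bar at the group mean (wild type blue, Hox-/- red, Chiron grey). Tet3 makes up 1.17% of the sum in wild-type mES cells and 45.9% to 67.3% outside mES cells, and each Hox-/- group lies below its wild type on the right.

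Of the Tet genes, Tet1 read 425 and 422 CPM in wild-type mES cells and 457 and 470.0 in Hox-/- ones (log2 fold change 0.13, SE 0.042, adjusted p = 0.0229). That small call was lost with DESeq2 (adjusted p = 0.126) and without either wild-type library (0.214 without replicate 1, 0.297 without replicate 2). In endoderm cultures Tet1 was lower in Hox-/-, at 41.7, 47.8 and 34.3 CPM against 61, 75.2 and 64.7 (-0.69, SE 0.1, adjusted p = 6.58e-05). The effects in the 2 cultures differed by -0.80 (SE 0.12, adjusted p = 7.38e-05). Activin A gastruloids showed no Tet1 call by genotype, with all 8 libraries between 43.9 and 52.2 CPM.

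Tet2 read 176 and 183 CPM in wild-type and 146 and 163 in Hox-/- mES cells (log2 fold change -0.22, SE 0.053, adjusted p = 0.002; 0.0662 without wild-type replicate 2). Endoderm cultures overlapped, at 16.9, 16.6 and 17.4 CPM against 14.6, 18.1 and 13.2, with an edgeR adjusted p of 0.316 that became 0.042 without Hox-/- replicate 2. At 96 h in activin A gastruloids the libraries also overlapped, at 9.46 and 8.91 CPM against 10.6 and 8.83. At 120 h they lay far apart, at 47.1 and 44.4 CPM in wild type and 19 and 18.5 in Hox-/- (-1.18, SE 0.094, adjusted p = 2.8e-15), or 2.26-fold. The genotype difference changed between 96 h and 120 h by -1.33 (SE 0.15, adjusted p = 1.58e-10), the largest such change among the 6 genes that passed.

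Tet3 was low in mES cells of both genotypes (CPM 5.71 and 5.91 against 4.63 and 4.62; adjusted p = 0.203). In Hox-/- endoderm cultures it was higher, at 78.3, 81.8 and 71 CPM against 56, 57.2 and 61.4 (log2 fold change 0.41, SE 0.063, adjusted p = 0.000107). The sign turned with time in activin A gastruloids. At 96 h the values were 57.6 and 54.8 CPM in wild type and 59.4 and 67.3 in Hox-/- (0.22, SE 0.057, adjusted p = 0.00169; 0.0945 without Hox-/- replicate 2). At 120 h they were 115 and 103 CPM against 90.4 and 85.2 (-0.20, SE 0.06, adjusted p = 0.00449; 0.229 without wild-type replicate 1, 0.0976 without Hox-/- replicate 2). The 96 h call was also lost with limma on log2(FPKM + 1) (adjusted p = 0.267), and the 120 h call with DESeq2 (adjusted p = 0.097). The turn itself was -0.42 (SE 0.083, adjusted p = 5.03e-05). In all, 6 of 8 genes passed the test of genotype by time, against 38.9% of all genes, 4 with a positive difference (18.7% of all genes) and 2 with a negative one (20.2%). The test of genotype by differentiation also passed 6, against 24.1%, with 2 positive (11.6%) and 4 negative (12.5%).

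The second question was how the 8 genes change as mES cells become endoderm cultures. In wild type 7 of 8 passed, against 79.9% of all genes, 3 higher in endoderm (41.6%) and 4 lower (38.3%). In Hox-/- 8 of 8 passed, against 80.6%, 2 higher (42.7%) and 6 lower (37.9%). Tet1 and Tet2 fell and Tet3 rose. In wild type Tet1 fell by 2.77 on the log2 scale (SE 0.084, adjusted p = 7.24e-17) and Tet2 fell by 3.52 (SE 0.081, adjusted p = 1.27e-18), while Tet3 rose by 3.21 (SE 0.1, adjusted p = 1.41e-16). In Hox-/- the log2 changes were -3.57 for Tet1, -3.42 for Tet2 and 3.97 for Tet3. The summed FPKM of the 3 genes was 46.4 ± 0.41 (SD, n = 2) in wild-type mES cells and 11.2 ± 0.652 (n = 3) in wild-type endoderm. The share of Tet3 in that sum went from 1.17% ± 0.0212 to 45.9% ± 3.27, and in Hox-/- from 1.04% ± 0.0858 to 61.1% ± 2.14.

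Uhrf1 fell by 2.24 (SE 0.048) in wild type and by 2.00 (SE 0.048) in Hox-/-, with adjusted p of 4.99e-19 and 1.4e-18. Dnmt1, which works with it, fell by far less, 0.57 (SE 0.045) in wild type and 0.42 (SE 0.045) in Hox-/-. The Uhrf1 to Dnmt1 ratio in FPKM was accordingly 3.91 ± 0.0891 (n = 2) in wild-type mES cells and 1.24 ± 0.0227 (n = 3) in wild-type endoderm cultures. Of the 20 replication genes 19 fell in wild type (median -1.22, against 0.07 over all genes), among them Ccne1, the cyclin of S-phase entry, by -2.44.

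Dnmt3a rose by 1.87 (SE 0.059, adjusted p = 1.27e-16) in wild type and by 1.53 (SE 0.056, adjusted p = 1.07e-15) in Hox-/-. Dnmt3b and Dnmt3l differed between genotypes in what they did. Dnmt3b rose by 0.15 in wild type (SE 0.049, adjusted p = 0.0074; 0.0654 without wild-type mES replicate 2) and fell by 0.70 in Hox-/- (SE 0.051, adjusted p = 8.07e-11). For Dnmt3l the wild-type change was -0.16 (SE 0.084, adjusted p = 0.0801; 0.0397 without wild-type endoderm replicate 2), and in Hox-/- it fell by 1.60 (SE 0.11, adjusted p = 2.55e-11). The 2 tables joined here were made from separate cultures, so culture and table cannot be told apart.

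The third question was how treatment and time bear on the 8 genes in gastruloids. Between wild-type activin A and Chiron gastruloids 6 of 8 differed at 96 h (61.6% of all genes), 1 higher (31.3%) and 5 lower (30.2%) with activin A. At 120 h 6 differed (41.9%), 2 higher (20.3%) and 4 lower (21.6%). Over time 7 of 8 changed in wild-type activin A gastruloids (74.9% of all genes), 2 upwards (37.2%) and 5 downwards (37.8%). In Hox-/- ones 6 changed (72.4%), 4 upwards (34.9%) and 2 downwards (37.6%), and in Chiron ones 5 (61.7%), 2 upwards (28.5%) and 3 downwards (33.2%). The treatment effect itself changed with time for 6 of 8 (39.6%), 4 positively (21.7%) and 2 negatively (18%).

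**Figure D5:**
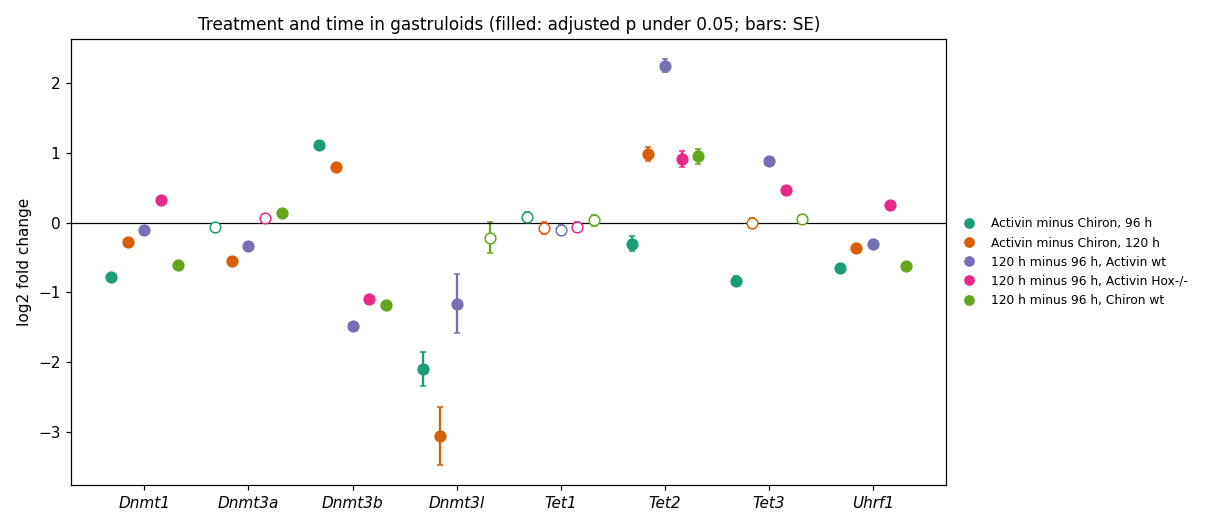
Log2 fold changes with their SE in gastruloids, for activin A over Chiron at 96 h and 120 h (wild type) and for 120 h over 96 h in wild-type activin A, Hox-/- activin A and wild-type Chiron gastruloids, filled where the adjusted p is under 0.05. Dnmt3b is above 0 for treatment and below 0 for time, Tet2 is above 0 in all 3 time comparisons, and Tet1 has no filled point; Dnmt3l over time in Hox-/- is left out because its libraries hold at most 3 counts.

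Dnmt3b was higher with activin A at both times. It read 190.4 and 205 CPM in Chiron and 441 and 451 in wild-type activin A gastruloids at 96 h, a change of 1.11 (SE 0.048, adjusted p = 1.14e-15), and 91.3 and 96.1 against 174 and 162 at 120 h (0.79, SE 0.058, adjusted p = 8.13e-11). From 96 h to 120 h it fell in every series, by 1.48 (SE 0.042) in wild-type activin A, by 1.09 (SE 0.043) in Hox-/- activin A and by 1.18 (SE 0.055) in Chiron gastruloids. The treatment effect was smaller at 120 h by 0.32 (log2 difference -0.32, SE 0.075, adjusted p = 0.00152).

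Dnmt3a differed with activin A at 120 h, at 109 and 117 CPM against 163 and 156 in Chiron, a change of -0.55 (SE 0.062, adjusted p = 1.2e-07). At 96 h it read 142 and 128 CPM against 136 and 135, which overlapped (-0.07, adjusted p = 0.287). In FPKM the 96 h levels were 25.3 ± 1.86 against 33.2 ± 2.6 (SD, n = 2), and limma on log2(FPKM + 1) called it (-0.38, adjusted p = 0.0162). Over time in wild-type activin A gastruloids the counts fell by 0.33 (SE 0.053, adjusted p = 2.89e-07), whereas limma on FPKM gave -0.04 (adjusted p = 0.712). In Hox-/- the counts gave 0.07 (adjusted p = 0.202; 0.0189 without Hox-/- 96 h replicate 2) and limma on FPKM 0.36 (adjusted p = 0.0174). In Chiron gastruloids the counts gave 0.13 (SE 0.057, adjusted p = 0.0481), a call lost without either 120 h library (0.0591 and 0.372). The treatment call at 96 h and the 3 time calls of Dnmt3a thus differed between edgeR on counts and limma on FPKM, where both the unit and the test change. The treatment call at 120 h (-0.49, adjusted p = 0.00882 with limma) and the 4 genotype calls held with limma on filtered log2(FPKM + 1).

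Dnmt3l was lower with activin A, at 1.64 and 1.4 CPM against 4.38 and 7.7 in Chiron at 96 h, a change of -2.09 (SE 0.24, adjusted p = 6.64e-08), and at 0.757 and 0.659 against 5.03 and 6.57 at 120 h (-3.05, SE 0.41, adjusted p = 2.15e-06). Both Chiron libraries of 96 h lay above both activin A ones in spite of their own spread. Over time Dnmt3l in wild-type activin A fell from 73 to 13 counts over the 2 libraries (-1.16, SE 0.42, adjusted p = 0.012), a call lost without wild-type 96 h replicate 1 or either 120 h library (0.0559 to 0.0959). In Hox-/- it was also called (adjusted p = 0.049), but at 0 to 3 counts per library at both times no fold is given. In Chiron the change over time missed the threshold (-0.22, adjusted p = 0.404); it was -0.50 without 96 h replicate 1 (adjusted p = 0.0171) and 0.31 without replicate 2. The treatment effect on Dnmt3l was not shown to differ between the times (-0.96, adjusted p = 0.171; 0.00859 without Chiron 96 h replicate 2).

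Tet2 rose with time in all 3 series. In wild-type activin A gastruloids it went from 9.46 and 8.91 CPM to 47.1 and 44.4, by 2.24 on the log2 scale (SE 0.092, adjusted p = 5.98e-27), or 4.73-fold. It rose by 0.91 (SE 0.11, adjusted p = 5.21e-10) in Hox-/- and by 0.94 (SE 0.11, adjusted p = 5.16e-08) in Chiron gastruloids, the latter from 11.8 and 10.1 CPM to 23 and 21.7. No gastruloid library outside the wild-type activin A group of 120 h exceeded 23 CPM. Against Chiron, Tet2 was 0.98 higher there (SE 0.098, adjusted p = 2.05e-08), and the treatment effect differed between the times by 1.28 (SE 0.14, adjusted p = 1.77e-07). At 96 h a small difference (-0.30, adjusted p = 0.0176) was lost without either activin A library or without Chiron replicate 1 (0.0588 to 0.248).

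Tet3 rose with time in activin A gastruloids, by 0.88 (SE 0.058, adjusted p = 7.44e-19) in wild type and by 0.47 (SE 0.059, adjusted p = 1.55e-09) in Hox-/-. Chiron gastruloids were already high at 96 h, at 102 and 89.8 CPM, and read 106 and 106 at 120 h (0.04, adjusted p = 0.574; 0.0195 without 96 h replicate 1). Accordingly activin A and Chiron differed at 96 h (-0.83, SE 0.064, adjusted p = 7.28e-11) and not by the test at 120 h (-0.01, SE 0.069, adjusted p = 0.924). Tet1 passed in none of the 5 treatment and time comparisons, its 12 gastruloid libraries lying between 43.9 and 52.2 CPM. It did pass over time in wild-type activin A gastruloids with no filter on low counts (-0.17, edgeR adjusted p = 0.0347). Without wild-type activin A 96 h replicate 2 the change was 0.21 by treatment at 96 h and -0.21 over time. Without Hox-/- 96 h replicate 1 it was -0.18 over time in Hox-/-.

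Dnmt1 and Uhrf1 were higher in Chiron gastruloids. At 96 h Dnmt1 read 402 and 389.7 CPM there against 244 and 239 with activin A (log2 fold change -0.78, SE 0.045, adjusted p = 3.72e-13), and Uhrf1 534 and 558 against 365 and 360.1 (-0.65, SE 0.045, adjusted p = 9.33e-12). By 120 h the differences were -0.28 and -0.36. In Chiron both fell with time, Dnmt1 by 0.61 (SE 0.046) and Uhrf1 by 0.62 (SE 0.046). In Hox-/- activin A gastruloids both rose with time, Dnmt1 by 0.33 (SE 0.04, adjusted p = 5.39e-10) and Uhrf1 by 0.25 (SE 0.038, adjusted p = 1.04e-07), and in wild-type ones Uhrf1 fell by 0.31 (SE 0.039, adjusted p = 1.14e-09). The small wild-type change of Dnmt1, -0.10 (adjusted p = 0.0226), missed the threshold without 96 h replicate 1 or either 120 h library (0.0578 to 0.137). The replication sum was 4312 to 4425 CPM in Chiron at 96 h and 3648 to 3841 at 120 h, against 3902 to 3996 and 3175 to 3197 in wild-type activin A gastruloids. In Hox-/- activin A gastruloids the sum was lower at 120 h (3691 to 3692 CPM) than at 96 h (4005 to 4087). Dnmt1 and Uhrf1 rose there over the same time. The part of the replication sum was not tested.

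The genes that work beside the 8 were read from fixed lists. Their counts stand beside the shares of all genes called higher and lower in Hox-/-. These were 12.4% and 10.8% in mES cells, 23.1% and 23.1% in endoderm, 22.2% and 16.7% at 96 h and 24.9% and 25.5% at 120 h. In wild-type differentiation they were 41.6% and 38.3%. The same shares apply to the lists read above. Of 12 maintenance partners 3 were higher and 2 lower in Hox-/- endoderm (median log2 fold change -0.003), at 96 h 5 were higher and none lower (0.08), and at 120 h 8 were higher and 1 lower (0.27, against -0.02 over all genes). Lig1, the ligase that joins new DNA fragments and helps to bring in Uhrf1, rose by 0.41 at 96 h and by 0.48 at 120 h, and fell by 0.18 in endoderm. Smarca4, a chromatin remodelling ATPase, rose by 0.45 in endoderm and 0.54 at 120 h. Pclaf, a PCNA-binding protein, fell by 0.33 in endoderm and by 0.35 at 120 h. Against these, in wild-type differentiation 4 of 12 rose and 8 fell, with Uhrf2, the relative of Uhrf1, up by 1.60 and Hells, a remodeller needed for methylation, at -1.79.

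Of 8 methyl-CpG readers 4 were higher and none lower in Hox-/- endoderm (median 0.22, against 0.002 over all genes), and the same counts held at 96 h (0.14). At 120 h 4 were higher and 2 lower. Mbd1 rose by 0.42 in endoderm and 0.53 at 96 h. Zbtb33 (Kaiso) rose by 0.34 in endoderm, 0.57 at 96 h and 0.40 at 120 h. Zbtb4 fell by 1.34 at 120 h, from 9.1 to 3.33 CPM.

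Genes for removing oxidised or deaminated bases moved in both directions, with 1 higher and 3 lower of 15 tested in mES cells, 3 and 5 in endoderm, 2 and 3 at 96 h and 5 and 4 at 120 h. Of all genes tested, 23.2%, 46.2%, 38.9% and 50.4% were called in these comparisons, in that order. Gadd45g, a stress-induced gene of the family linked to demethylation, rose by 1.88 in Hox-/- endoderm (7.07 to 26 CPM) and by 1.17 at 120 h (19.1 to 39.8 CPM). Smug1, a uracil glycosylase, rose by 0.96 in endoderm and 0.31 at 96 h. Tdg, the glycosylase that removes the products of Tet oxidation, rose by 0.17 in endoderm, 0.17 at 96 h and 0.30 at 120 h. Gadd45a fell by 0.93 in mES cells and by 0.61 at 120 h.

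Among 16 guides and regulators of methylation, of which 15 were tested outside endoderm, 4 rose and 3 fell in mES cells, 6 rose and 3 fell in endoderm, 5 rose and 3 fell at 96 h and 6 rose and 5 fell at 120 h. Dppa3, which keeps Uhrf1 off chromatin, rose by 0.85 in Hox-/- mES cells (9.97 to 18 CPM) and fell by 1.43 in Hox-/- endoderm (13.9 to 5.12 CPM). Prdm14, a naive-state repressor of Dnmt3b and Dnmt3l, fell by 1.62 in endoderm and rose by 1.06 at 96 h. Zfp57, which protects methylation at imprinted sites, fell by 0.93 at 96 h (61.1 to 30.6 CPM) and by 1.14 at 120 h (102 to 42.9 CPM). Cxxc4, a CpG-binding regulator of Tet2, rose by 0.97 in endoderm and fell by 0.85 at 120 h (26.9 to 13.8 CPM), where Tet2 also fell. From 96 h to 120 h in wild-type activin A gastruloids Cxxc4 rose by 2.22, from 5.48 to 26.9 CPM.

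The supply of the methyl donor S-adenosylmethionine and of alpha-ketoglutarate, the co-substrate of the Tet enzymes, was also read. Of 15 methyl-donor and folate genes, none rose and 4 fell in Hox-/- mES cells, 2 rose and 7 fell in endoderm, 6 rose and 4 fell at 96 h and 10 rose and 4 fell at 120 h (median 0.37). Gldc, the glycine decarboxylase that is high in pluripotent cells, fell by 1.22 in endoderm, 0.59 at 96 h and 1.13 at 120 h. Mthfd1l rose by 0.69 at 120 h. Of 13 alpha-ketoglutarate and 2-hydroxyglutarate genes, 6 rose and none fell in mES cells, 2 rose and 8 fell in endoderm, 4 rose and 1 fell at 96 h and 5 rose and none fell at 120 h. Fh1, the fumarate hydratase, rose in all 4 comparisons, by 0.56, 0.41, 0.59 and 0.68 in that order. Idh1 rose by 0.39 in mES cells and 0.18 in endoderm and fell by 0.35 at 96 h.

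Germline genes known to be silenced by promoter methylation were low outside mES cells. The 15 genes summed to 89.9 to 92.5 CPM in wild-type and 94.5 to 99.5 in Hox-/- mES cells. In endoderm cultures the sums were 30.3 to 34.7 CPM against 18.1 to 21.3, at 96 h in activin A gastruloids 12.9 to 13.2 against 4.49 to 5.68, and at 120 h 3.95 to 4.32 against 1.64 to 2.52. Outside mES cells the lower sums in Hox-/- stood beside lower Dnmt3b and Dnmt3l and higher Dnmt3a. In Hox-/- mES cells these genes differed in the same directions, and the germline sum was not lower. The mean sum of 5 primordial germ cell genes was also lower in Hox-/- outside mES cells. With wild type first, it was 121 against 79.6 CPM in endoderm, 102 against 70.9 at 96 h and 41.1 against 11.9 at 120 h. In mES cells it was 91.2 against 108 CPM. Any link between these values was not tested. Dazl fell by 2.56 in endoderm, and Mael fell by 2.38 and Tdrd1 by 1.55 at 96 h. At 120 h 12 of the 15 were at or under 3 counts in both Hox-/- libraries and 9 in both wild-type ones.

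In how they vary over the 10 groups, Tet1 and Tet3 ran in opposite directions (Pearson r of log2(CPM + 1) -0.982, n = 10 groups), and Tet1 and Tet2 together (0.902). Both values rest largely on the step between mES cells and the other groups. Among gastruloid groups the mean of Tet1 stayed between 44.1 and 48.6 CPM. There Tet3 ran from 56.2 to 109 CPM and Tet2 from 9.19 to 45.7. Dnmt3b followed none of the other 7 closely, with r between -0.397 and -0.0017. Among 11351 genes with a mean of at least 5 CPM, the genes most like each member were Zmym4, Sf3b2 and Sh3bp1 for Dnmt1 (r 0.979, 0.978 and 0.977), Mitf, Ddx46 and Scfd2 for Uhrf1 (0.987, 0.986 and 0.985) and Tbc1d12, Senp6 and Traf4 for Dnmt3a (0.968, 0.966 and 0.963). For Dnmt3b they were Aldh9a1, Pef1 and Npm3 (0.949, 0.925 and 0.918), and for Dnmt3l Prelid2, Tdh and Tmem167b (0.959, 0.935 and 0.934). For Tet1 they were Crxos, Gm13230 and D230025D16Rik (0.997, 0.996 and 0.996), for Tet2 Zfp976, Mto1 and Atg2a (0.984, 0.983 and 0.976), and for Tet3 Dbn1, Ndst2 and B4galt2 (0.997, 0.996 and 0.995). The points share libraries, cultures and depth, and these are descriptions without a test.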

How the data were processed

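RNA-seq of 22 libraries was analysed; per the labels' protocols poly(A) RNA went into a strand-marking kit. The deposited count tables give unnormalized whole counts per Ensembl gene. The FPKM tables deposited by the authors give length-normalized levels, with symbols and positions. The submitters' processing notes name cutadapt 1.16, STAR 2.7.7a, Cufflinks 2.2.1 and mm10; the counting tool and its use of strand are not given in the sources used here. Members were matched by symbol and joined to the counts by gene ID. The members and lists were chosen with earlier results of these data known.

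Counts were tested with edgeR 4.0.16 (R 4.3.3): filterByExpr, TMM scaling, one coefficient per group, quasi-likelihood tests, Benjamini-Hochberg adjustment over all genes tested, and 14 comparisons. A gene was called at an adjusted p under 0.05. The mES and endoderm tables were fitted alone, each gastruloid table with its 4 groups together, and differentiation on the joined mES and endoderm counts. Log2 fold changes are edgeR's, and SE is the fold change divided by the square root of F. A library at or under 3 counts is at the floor. All 8 members are named. From each list, at most 2 called genes per direction and genotype comparison, with the largest fold change and a mean of at least 1 CPM, could be named, and 1 per direction elsewhere. Alternatives were RLE and total-count scaling, other count filters, DESeq2 1.42.0, limma 3.58.1 on log2(FPKM + 1) and log2(FPKM + 0.1) for FPKM of at least 1 in 2 libraries or unfiltered, a replicate block, only the 2 groups compared, and each library left out. The edgeR fit was tested on simulated data. Promoter windows come from RefSeq on GRCm38.p6.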

Additional observations from a re-analysis of the deposited data

Results flagged for a closer look

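Effects differed between conditions by a test of the difference itself (edgeR interaction contrasts, adjusted p under 0.05), 18 in all. Values are differences between 2 log2 fold changes.

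The genotype difference in activin A gastruloids changed from 96 h to 120 h for 6 genes, by 0.43 for Dnmt1, 0.40 for Dnmt3a, 0.39 for Dnmt3b, -1.33 for Tet2, -0.42 for Tet3 and 0.56 for Uhrf1. Time and sequencing depth go together in these libraries. For Dnmt3a the value with limma on log2(FPKM + 1) was 0.40 with an adjusted p of 0.073.

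The difference between activin A and Chiron gastruloids changed with time by 0.49 for Dnmt1, -0.48 for Dnmt3a, -0.32 for Dnmt3b, 1.28 for Tet2, 0.82 for Tet3 and 0.29 for Uhrf1. For Dnmt3a the value with limma on log2(FPKM + 1) was -0.11 (adjusted p = 0.549).

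The genotype difference in endoderm cultures departed from that in mES cells by -0.34 for Dnmt3a, -0.86 for Dnmt3b, -1.44 for Dnmt3l, -0.80 for Tet1, 0.77 for Tet3 and 0.24 for Uhrf1. The Uhrf1 call was lost without wild-type mES replicate 1 (adjusted p = 0.12) or Hox-/- mES replicate 2 (0.101).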

How the results depend on the processing

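Of 1206 refits of the 86 called member effects, none reversed, 1124 kept their side of the threshold and 82 lost it. The count of members called in mES cells by genotype fell from 6 to 2 with limma on log2(FPKM + 1) or log2(FPKM + 0.1), to 0 with limma and no filter, and to between 3 and 6 with a library left out (3 without wild-type replicate 2). At 96 h by genotype it fell from 4 to 2 in all 3 limma fits, and over time in wild-type activin A gastruloids from 7 to 4 with filtered limma (5 to 8 with a library left out). The 3 genes with the same direction in all 4 genotype comparisons became 1 (Dnmt3a) with filtered limma, which tested 6 of the 8, and 0 unfiltered. With at least 10 counts in every library they were 2, since Dnmt3l was not tested. The highest and lowest group were the same for 5 of 8 genes with TMM-scaled CPM and for 6 with FPKM. Of the 24 genes named as most like a member, 13 stayed in the first 3 over all 22 libraries. In CPM, an alternative chosen after seeing the data, the Dnmt3b to Dnmt3a ratio in Hox-/- was 51.4% of wild type in mES cells, 36.0% in endoderm and 51.0% and 50.8% in gastruloids.

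All genes called changed by over 1.5 times as follows. In mES cells 3168 became 954 with DESeq2, 387, 372 and 23 with the limma fits, and 1477 and 1690 without wild-type replicate 1 or 2. In endoderm 6922 became 4469 with unfiltered limma. At 96 h by genotype 6546 became 3195 with DESeq2 and 3048, 2787 and 2665 with limma; by treatment 10655 became 7040 and 6670 with filtered limma. Genotype by time went from 6544 to 4128 with DESeq2, 4264 with limma on log2(FPKM + 0.1) and 4193 with unfiltered limma. Total-count scaling moved the median of all genes by over 0.1 for genotype at 120 h (-0.112), Chiron time (0.104) and wild-type differentiation (0.117).

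Values that changed sign all belonged to effects not called. For mES Dnmt1 by genotype they were -0.0013 with RLE, -0.012 with no filter, -0.00069 with at least 10 counts and -0.0032 with DESeq2 (-0.035 to 0.029 with a library left out). At 96 h by genotype, total-count scaling gave Dnmt1 -0.016, Tet1 -0.015 and Uhrf1 -0.027. No filter gave -0.012, -0.010 and -0.023, limma on log2(FPKM + 1), filtered or not, -0.059, -0.017 and -0.071, and limma on log2(FPKM + 0.1) -0.060, -0.021 and -0.072. Uhrf1 was -0.0061 with at least 10 counts and -0.012 with only the groups compared, and Dnmt1 -0.00048 in the latter. Leaving out a library gave -0.011 to 0.089 for Dnmt1, -0.070 to 0.15 for Tet1 and -0.0028 to 0.26 for Tet2. Tet1 at 120 h by genotype was -0.033 with total counts, -0.012, -0.016 and -0.012 with the limma fits, and -0.0015 to 0.16 with a library left out. Tet3 by treatment at 120 h was 0.041 with total counts, 0.0054 with no filter, 0.024 with at least 10 counts, 0.022 with only the groups compared and -0.089 to 0.067 with a library left out. Genotype by time was -0.018 for Tet1 with total counts (-0.070 to 0.15 with a library left out) and 0.26 for Dnmt3l with unfiltered limma. With a library left out, Dnmt3a ran from -0.10 to 0.037 by treatment at 96 h and -0.011 to 0.13 over time in Hox-/-, Tet1 from -0.18 to 0.030 over time in Hox-/-, Dnmt3l from -0.50 to 0.31 and Tet3 from -0.019 to 0.17 over time in Chiron, and Tet2 from -0.027 to 0.19 for genotype by differentiation. The cause of these changes was not tested.

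Same-numbered libraries showed little shared deviation from their group means (correlations of -0.0704 to 0.106). With so few libraries per group, this cannot decide whether the numbers pair samples. With a replicate block Dnmt1 in endoderm by genotype (0.12, adjusted p = 0.0607) and Dnmt3l over time in Hox-/- (0.0552) were lost and Dnmt3l in wild-type differentiation was gained (0.0455); the members called became 5, 5 and 8, and were as before in the other comparisons.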
